A study of Homo sapiens with 36 samples.

Results

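Human mitochondrial DNA carries 37 genes, and all 37 were found, by gene symbols that start with MT-, among the 74628 genes of the count table. They were 2 ribosomal RNA (rRNA), 13 messenger RNA (mRNA) and 22 transfer RNA (tRNA) genes. Their RNA was followed over 3 consecutive days in Jurkat cells, an established T-lymphocyte leukaemia line that here stably expressed dCas9-VP64 and carried mCherry. dCas9-VP64 is a Cas9 without nuclease activity joined to a transcriptional activator, which a guide RNA brings to a chosen promoter (CRISPR activation). Cells were transduced with lentivirus for the guide sgRELA, against RELA, the gene of an NF-kB subunit, or for the non-targeting guide sgControl, and were selected with puromycin for 3 days. They were harvested on day 5, 6 or 7 after transduction, with 3 biological replicates per guide and day. All 6 groups therefore shared dCas9-VP64, the virus and the drug, and the labels name a single guide per condition and do not state whether the line is a clone. Each of the 18 RNA samples was made into 2 libraries by RamDA-seq, a full-length total RNA method, from 100 pg of RNA per library. Cells that were not transduced were not analysed here.

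Mitochondrial DNA is read from promoters on both strands into long transcripts that cover many genes. The heavy-strand transcript gives both rRNAs, 14 tRNAs and 12 of the mRNAs, and the light-strand transcript gives MT-ND6 and 8 tRNAs. Most mRNAs and rRNAs are flanked by tRNAs, and cleavage at the tRNAs releases them. Poly(A) polymerase of mitochondria (MTPAP) then adds a tail to most mRNAs, which for several completes a stop codon that is only partly present in the DNA. Because genes of a strand start on a shared transcript, differences in level between them are known to arise in part after transcription, through processing and RNA stability. The mRNAs encode core subunits of respiratory complexes I, III and IV and of the ATP synthase (complex V), and the other subunits are encoded in the nucleus.

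Libraries held 7586200 to 16124500 counts (totals rounded to 6 digits) and detected 25398 to 29057 genes. The 37 mitochondrial genes took 7.41 to 9.87% of the counts of an RNA sample. Of 11 T-lineage markers, 11 averaged over 1 CPM (CPM is the usual count scaled to library size, here after TMM scaling of that size), with a summed level of 2541 to 3799 CPM. Of 12 markers of other cell types, 2 did (CD79A and COL1A1) and 4 were at 0, with a summed level of 23.6 to 68.1 CPM. Between day 7 and day 5, 5 T-lineage markers were called higher and 1 lower in sgControl and 5 higher and 0 lower in sgRELA, by the test described with the day comparisons. Of all genes tested, 6.65% were called higher and 6.36% lower in sgControl and 6.35% and 6.06% in sgRELA. Of 5 markers of other cells tested, 0 were called in sgControl and COL1A1 was lower in sgRELA. CD79A was higher in sgRELA than in sgControl on each day (log2 1.65, 1.37 and 1.47). The part of these markers in the other results was not tested. RELA itself ranged from 20.2 to 39.3 CPM in sgControl and from 119.8 to 318 CPM in sgRELA, so the groups did not overlap. In 3 RNA samples, library 1 stood apart from the other 5 libraries of its group. In sgControl day 5 replicate 1 this was a high share of counts on the rRNA genes, and in sgControl day 6 replicate 1 and sgRELA day 6 replicate 1 a low share on all 37 genes and on the mRNA genes. Values without these 3 libraries are given where they change a call. The libraries were picked after seeing the data, by these same mitochondrial shares, a choice that can narrow the spread of the genes tested. Adjusted p from that fit thus describe how calls depend on these libraries and are not support for a change. Some differences called in neither fit also changed sign, and not all of these are given. MT-RNR2 on day 6 against day 5 in sgControl, for example, had a log2 change of -0.17 with all libraries and 0.058 without the 3.

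The 3′ ends of the 13 mRNA genes are shown because they differ in whether the annotated gene holds a whole stop codon. The letters are the last codons of each gene, 5′ to 3′ on the coding strand, from GENCODE v29 transcripts on GRCh38, and capitals mark the stop codon or the part of it that the gene holds. All are plus-strand genes except MT-ND6, which lies on the minus strand.
MT-ND1 (chrM:4249-4262): ccccctcaaaccTA
MT-ND2 (chrM:5499-5511): ctaataatcttaT
MT-CO3 (chrM:9978-9990): tgatgagggtctT
MT-ND3 (chrM:10392-10404): gactgaaccgaaT
MT-ND4 (chrM:12125-12137): gggttttcctctT
MT-CYB (chrM:15875-15887): ctcaaatgggccT
MT-CO1 (chrM:7431-7445): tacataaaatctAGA
MT-CO2 (chrM:8255-8269): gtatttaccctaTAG
MT-ATP8 (chrM:8558-8572): cccccacaatccTAG
MT-ATP6 (chrM:9193-9207): cacgacaacacaTAA
MT-ND4L (chrM:10752-10766): ctactccaatgcTAA
MT-ND5 (chrM:14134-14148): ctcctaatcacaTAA
MT-ND6 (chrM:14149-14163): gctcgggggaatAGG
The first 6 genes end in T or TA and need added adenines to make a TAA stop. The other 7 genes hold a complete stop. It is AGA in MT-CO1 and AGG in MT-ND6, letters that are read as arginine in the standard genetic code. The last base of the MT-ATP6 stop (chrM:9207) is also the first base of MT-CO3. Whether the released MT-ATP6 mRNA keeps that base is not shown by the gene sequence.

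Neighbouring mitochondrial genes also overlap, which limits what gene counts can separate. MT-ATP8 and MT-ATP6 lie on a shared mRNA in different reading frames and have 46 bases in common (chrM:8527-8572, plus strand). These begin with the ATG of MT-ATP6 and end with the TAG of MT-ATP8, both in capitals here.
MT-ATP8 with MT-ATP6: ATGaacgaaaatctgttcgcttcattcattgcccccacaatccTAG
MT-ND4L and MT-ND4 share 7 bases (chrM:10760-10766), where the ATG of MT-ND4 and the TAA of MT-ND4L interlock as ATGcTAA. MT-ATP6 and MT-CO3 share 1 base, and so do MT-TC and MT-TY, while MT-TI and MT-TQ share 3 bases on opposite strands. The way in which the authors' counting treated reads over overlapping genes, opposite strands and several matching places is not given in the sources used here.

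Per length, the rRNAs led and the mRNAs spread over a wide range. MT-RNR1 (12S rRNA of the small ribosomal subunit) averaged 18739.8 CPM per kb over the 18 RNA samples and MT-RNR2 (16S rRNA of the large subunit) 16355. The mRNAs for a complex I and a complex IV subunit came next, MT-ND4 at 8358 and MT-CO1 at 7950.1 CPM per kb. MT-ATP6 (3302), MT-CYB (2583), MT-CO2 (2377), MT-ND4L (1946), MT-ND5 (1808), MT-CO3 (1744) and MT-ND2 (1158) followed. MT-ND1 (969), the light-strand mRNA MT-ND6 (838), MT-ND3 (276) and MT-ATP8 (134) were lowest. MT-ATP8 lies on the same mRNA as MT-ATP6, and how reads over both genes were counted is not known, so its low value may not describe the RNA. The same holds for MT-ND4L beside MT-ND4.

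The tRNAs were almost absent from these libraries. All 22 together had 779 counts in 36 libraries, 0.00226% of the mitochondrial counts, and 17 to 78 counts per RNA sample. The 14 heavy-strand tRNA genes held 660 of them and the 8 light-strand genes 119. MT-TL2 had 0 counts, which allows up to 3 counts over all libraries, and intervals and limits here cover counting error only. The filter on low counts was passed by 17 members: both rRNAs, all 13 mRNAs, and of the tRNAs MT-TF, with 173 counts, and MT-TI, with 90. MT-TF had 26, 1 and 1 counts in the 3 sgControl samples of day 5 and 8, 6 and 14 on day 7. In sgRELA it had 8, 12 and 12 on day 5 and 16, 22 and 23 on day 7. MT-TI had 0, 10 and 0 counts in sgControl on day 5 and 9, 1 and 15 on day 7, and 0, 0 and 1 and then 3, 5 and 13 in sgRELA. Neither was called in any comparison, with adjusted p of 0.976 and 0.682 for MT-TF and 0.751 and 0.195 for MT-TI between day 7 and day 5 in sgControl and sgRELA. MT-TF in sgControl was the tested tRNA whose sign was opposite to most mRNAs of its strand (log2 fold change -0.11 ± 1.16, ± SE). This sign turned without the 3 libraries that stood apart, where the change was 0.48. No change in a tRNA was detectable at this depth.

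Between day 5 and day 7, most mitochondrial mRNAs rose and MT-CO1 fell, in both guides. Here, called means an adjusted p under 0.05 in edgeR's quasi-likelihood F test, with Benjamini-Hochberg adjustment over all 27553 genes tested. Log2 fold changes are given ± their standard error (SE). In sgControl, 11 of the 17 members tested were called, 9 higher and 2 lower, against 13% of all genes tested, 6.65% higher and 6.36% lower. In sgRELA, 9 were called, 8 higher and 1 lower, against 12.4%, 6.35% and 6.06%. The median log2 fold change of the 13 mRNAs was 0.57 in sgControl and 0.58 in sgRELA, where that of all genes tested was -0.0079 and -0.0075. The 2 guides share no samples, and 9 members were called in both, each with the same sign. Their tests share an estimate of the spread, and a batch that followed the day would be common to both, so these calls are not independent. Across the 15 rRNA and mRNA genes, the fold changes of the guides correlated with Pearson's r of 0.96, a description over genes that share transcripts and libraries. Comparisons of day 6 with day 5, of day 7 with day 6 and of day 7 with day 5 share samples, so their values are given side by side and do not count as separate support.

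**Figure D1:**
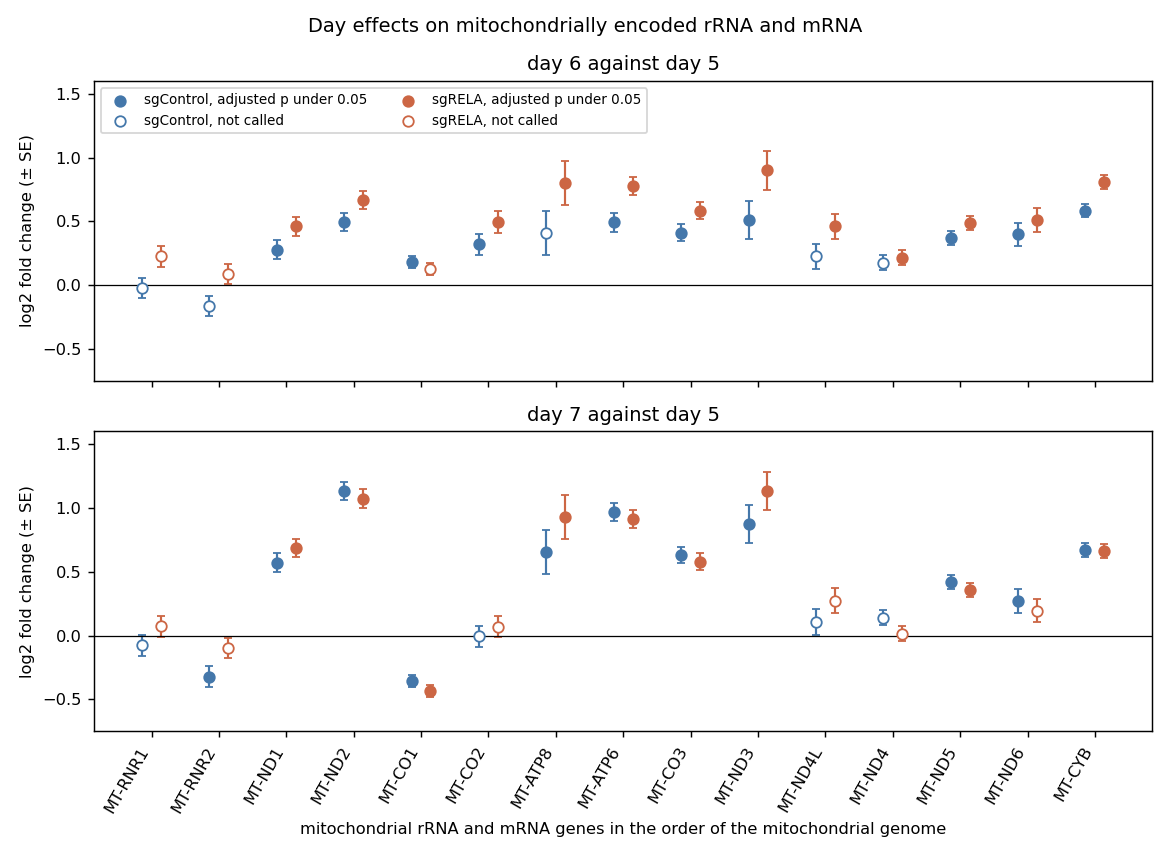
Log2 fold change (± SE) of the 2 rRNA and 13 mRNA genes in genome order, for day 6 against day 5 (top) and day 7 against day 5 (bottom), with sgControl in blue and sgRELA in orange and filled points for an adjusted p under 0.05. On day 7, MT-ND2 stands highest in sgControl at 1.13 and MT-CO1 is the mRNA below 0 and called in both guides.

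The 2 steps were also tested one by one. From day 5 to day 6, 10 members were called in sgControl, all higher, against 8.87% of all genes (3.29% higher and 5.58% lower). In sgRELA 12 were called, all higher, against 6.91% (2.57% higher and 4.34% lower), and 9 were called in both guides. With library 1 of each RNA sample alone, 0 members were called in sgControl and 5 in sgRELA. Of all genes, 430 and 196 were called there. From day 6 to day 7, 6 members were called in sgControl, 4 higher and 2 lower, against 14.6% of all genes (8.25% higher and 6.31% lower). In sgRELA 6 were called, 2 higher and 4 lower, against 12.2% (7.21% higher and 5.02% lower). Without the 3 libraries that stood apart, this last count was 11, with 2 higher and 9 lower, and without sgRELA day 7 replicate 1 it was 3. Of all genes, these fits called 3420 and 2540, where 3368 were called with all libraries. In sgControl the balance of directions in this step turned with the libraries used: library 2 of each RNA sample alone gave 2 higher and 5 lower. In sgRELA, library 2 alone gave 1 higher and 8 lower, and library 1 alone 0 higher and 1 lower. The balance was lost without sgRELA day 6 replicate 3, where 2 were higher and 2 lower. Library 1 alone called 961 of all genes in sgRELA, and the fit without that sample 2599. Of all genes, library 2 alone called 2628 in sgControl and 2336 in sgRELA. MT-ND1 and MT-ND2 were called higher in both guides and MT-CO1 and MT-CO2 lower in both, although MT-ND1 in sgRELA (0.22 ± 0.073, adjusted p 0.042) lost its call in 9 of 14 alternatives, among them a replicate block and each fit that left out 1 RNA sample other than day 6 replicate 3.

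Of the 2 rRNAs, MT-RNR1 was called in no comparison of days and MT-RNR2 in 1 with all libraries, and these counts depended on the 3 libraries that stood apart. In sgControl, MT-RNR2 (chrM:1671-3229) measured 36729, 24536 and 25592 CPM in replicates 1 to 3 of day 5, 24012, 26137 and 27319 on day 6 and 22757, 23509.6 and 23282 on day 7. The sgRELA samples had 24766, 24894 and 25429 on day 5, 25369, 26089 and 28399 on day 6 and 23342, 23123 and 23670.5 on day 7. All samples of day 7 lay below those of day 5 in both guides, and replicate 1 of sgControl on day 5 lay far above the rest. MT-RNR2 was called lower on day 7 than on day 5 in sgControl (log2 -0.32 ± 0.079, adjusted p 0.00521) and not in sgRELA (-0.10 ± 0.079, adjusted p 0.513). The size in sgControl rested on 1 library. Without the 3 libraries that stood apart, of which library 1 of day 5 replicate 1 is in this contrast, the difference was -0.11 (adjusted p 0.00742). Without that RNA sample as a whole it was -0.11 and not called (adjusted p 0.12). With library 2 of each RNA sample alone it was -0.093 and not called (adjusted p 0.102).

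The level of MT-RNR1 (chrM:648-1601) was 18496 ± 3793, 18215 ± 1793 and 17539 ± 567 CPM (mean ± SD, n = 3) on days 5, 6 and 7 in sgControl and 16456 ± 557, 19257 ± 1841 and 17305 ± 249.8 in sgRELA. Without the 3 libraries, the day 5 and day 6 means were 15489 ± 1431 and 18640 ± 913 in sgControl, and that of day 6 in sgRELA was 20067 ± 938. These libraries were picked as extremes in shares that include MT-RNR1, so the adjusted p of this fit are descriptions. MT-RNR1 was then called higher on day 6 than on day 5 in both guides (log2 0.27 and 0.29, adjusted p 8.71e-05 and 2.14e-05, where all libraries gave -0.022 and 0.23). It was also called lower on day 7 than on day 6 in sgRELA (-0.20, adjusted p 0.00133). Between day 7 and day 5 in sgControl, the sign of MT-RNR1 turned with the libraries. It was -0.077 with all libraries, 0.19 without the 3 (adjusted p 0.00186), -0.48 with library 1 of each RNA sample alone (adjusted p 0.0505) and 0.47 with library 2 alone (adjusted p 0.000184). For MT-RNR2, leaving out the 3 libraries added calls on day 7 against day 6 in both guides (-0.16 and -0.20, adjusted p 4.32e-05 and 1.35e-06) and on day 6 against day 5 in sgRELA (0.13, adjusted p 0.00205).

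The ratio of MT-RNR2 to MT-RNR1 counts was 1.56 ± 0.0960, 1.42 ± 0.0488 and 1.32 ± 0.0217 on the 3 days in sgControl and 1.52 ± 0.0592, 1.39 ± 0.0620 and 1.35 ± 0.0235 in sgRELA. Per sample it spanned 1.45 to 1.62 on day 5 and 1.31 to 1.35 on day 7 in sgControl, and 1.46 to 1.57 and 1.33 to 1.37 in sgRELA, so the sums of both libraries did not overlap between these days. Single libraries did. In the first libraries the ratio spanned 1.15 to 1.51 on day 5 and 1.27 to 1.39 on day 7 in sgControl, and 1.30 to 1.74 and 1.30 to 1.40 in sgRELA. In the second libraries it spanned 1.85 to 2.08 and 1.24 to 1.35 in sgControl, and 1.41 to 1.93 and 1.32 to 1.36 in sgRELA. In sgControl the separation between the days thus came from the second libraries of day 5.

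Complex I (NADH dehydrogenase, the entry point of electrons from NADH) holds 7 mitochondrial subunits. Of their mRNAs, 5 were called higher on day 7 than on day 5 in sgControl and 4 in sgRELA. MT-ND4 and MT-ND4L in sgControl, and MT-ND4L and MT-ND6 in sgRELA, joined them without the 3 libraries that stood apart. MT-ND2 (chrM:4470-5511), a subunit of the proton-pumping membrane arm, had the largest fold among them in sgControl. It measured 832, 662 and 749 CPM in sgControl on day 5, 984, 1159 and 1013 on day 6 and 1583, 1700.2 and 1636 on day 7. The sgRELA samples had 798, 823 and 809 on day 5, 1181, 1307 and 1381 on day 6 and 1686, 1699 and 1726 on day 7. No 2 days overlapped in either guide. The rise from day 5 to day 7 was 2.19-fold in sgControl (log2 1.13 ± 0.072, adjusted p 3.29e-12) and 2.10-fold in sgRELA (1.07 ± 0.072, adjusted p 6.75e-12), higher in 3 of 3 samples of each.

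MT-ND3 (chrM:10059-10404), a small subunit at the hinge of the membrane arm, had a rise of like size from a low level. It measured 92.0, 60.7 and 50.3 CPM on day 5 and 119, 129 and 124 on day 7 in sgControl, and 61.3, 54.7 and 53.2 on day 5 and 127, 122 and 122 on day 7 in sgRELA. The days did not overlap, with log2 changes of 0.87 ± 0.15 (adjusted p 0.000119) and 1.13 ± 0.15 (adjusted p 2.92e-06). MT-ND1 (chrM:3307-4262), which lines the quinone site, measured 844, 709 and 672 CPM on day 5 and 1013, 1181 and 1115 on day 7 in sgControl. Its values in sgRELA were 714, 710.1 and 693 on day 5 and 1118, 1135 and 1152 on day 7. It rose by log2 0.57 ± 0.073 and 0.69 ± 0.073 (adjusted p 1.55e-06 and 7.42e-08). With library 1 of each RNA sample alone, the sgControl rises of MT-ND3 and MT-ND1 were 0.68 and 0.40 and not called (adjusted p 0.119 and 0.101). MT-ND5 (chrM:12337-14148), a proton-pumping subunit and the longest of these genes, measured 2719.9, 2622 and 2557 CPM on day 5 and 3354, 3677 and 3531 on day 7 in sgControl and 2749.9, 2870.0 and 2605 on day 5 and 3427, 3479 and 3615 on day 7 in sgRELA. Its rise was smaller, 0.42 ± 0.055 and 0.36 ± 0.055 (adjusted p 2.06e-06 and 2.59e-05), and day 6 already stood 0.37 ± 0.055 and 0.49 ± 0.055 above day 5. Calls on day 7 against day 6 were added without the 3 libraries for MT-ND3 in sgControl (0.43, adjusted p 0.00543) and MT-ND5 in sgRELA (-0.16, adjusted p 0.0113).

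MT-ND4 and MT-ND4L, neighbours on a shared mRNA that encode membrane subunits, were not called between day 5 and day 7 with all libraries. MT-ND4 (chrM:10760-12137) measured 10023, 10220.0 and 10867 CPM on day 5 and 11117, 11718 and 11453 on day 7 in sgControl. In sgRELA it measured 10712, 11680.1 and 11277 on day 5, 11907, 13421 and 13763 on day 6 and 11093, 11143 and 11762 on day 7. Day 7 and day 5 differed by log2 0.14 ± 0.058 and 0.014 ± 0.058 (adjusted p 0.12 and 0.932). In sgControl it was called without the 3 libraries that stood apart (0.11, adjusted p 0.0492) and also with a replicate block. In that fit without the 3 libraries MT-ND4 in sgControl was also called higher on day 6 than on day 5 (0.24, adjusted p 4.01e-05) and lower on day 7 than on day 6 (-0.13, adjusted p 0.0118). In sgRELA it was called higher on day 6 than on day 5 (0.22 ± 0.058) and lower on day 7 than on day 6 (-0.20 ± 0.058). The rise was lost without day 5 replicate 1 or 3 or day 6 replicate 2 or 3 of sgRELA (log2 0.18 to 0.27 over 14 alternatives), and the fall without day 6 replicate 2 or 3 or day 7 replicate 1 or 2 (log2 -0.33 to -0.11). Both calls were also lost with library 1 of each RNA sample alone, and the fall with DESeq2. MT-ND4L (chrM:10470-10766) had group means of 531 ± 98.4 and 573 ± 44.7 CPM on days 5 and 7 in sgControl and 486 ± 29.4 and 588 ± 24.5 in sgRELA. Its differences of 0.11 ± 0.10 and 0.27 ± 0.10 did not pass (adjusted p 0.573 and 0.073), and without the 3 libraries both did (0.32 and 0.30, adjusted p 0.00179 and 0.00357). On day 6 against day 5 in sgRELA, MT-ND4L was called higher with all libraries (0.46, adjusted p 0.00306). That call was lost without day 6 replicate 3 and with library 1 of each RNA sample alone. Leaving out the 3 libraries also added MT-ND4L on day 6 against day 5 in sgControl (0.37, adjusted p 0.000658) and on day 7 against day 6 in sgRELA (-0.25, adjusted p 0.0137).

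MT-ND6 (chrM:14149-14673, minus strand) was the only mRNA of the light strand and was followed separately for that reason. It measured 405, 349 and 339 CPM on day 5 in sgControl, 444, 518 and 481 on day 6 and 419, 472 and 429 on day 7. In sgRELA the values were 371, 415 and 349.7 on day 5, 468, 532 and 621 on day 6 and 406, 445 and 451 on day 7. The day 6 samples were the highest in sgRELA, and all lay above those of day 5 in both guides. MT-ND6 rose from day 5 to day 6 by log2 0.40 ± 0.092 in sgControl and 0.51 ± 0.092 in sgRELA (adjusted p 0.0044 and 0.000392). With library 1 of each RNA sample alone, these rises were 0.13 and 0.49 and not called (adjusted p 0.788 and 0.202). MT-ND6 was lower on day 7 than on day 6 in sgRELA (-0.32 ± 0.092, adjusted p 0.0189). This call was lost without day 6 replicate 3 or day 7 replicate 1 and with library 1 alone (log2 -0.48 to -0.20 over the alternatives). Day 7 against day 5 in sgControl passed narrowly (0.27 ± 0.092, adjusted p 0.0482), and the call was lost in 9 of 14 alternatives, among them each fit that left out 1 RNA sample other than day 5 replicate 1. In sgRELA this comparison gave 0.20 and was not called (adjusted p 0.183), and without the 3 libraries it gave 0.22 and was (adjusted p 0.0475). Its share of the mitochondrial mRNA counts stayed near 1% on every day: 1.07 ± 0.0872%, 1.178 ± 0.0363% and 1.16 ± 0.0371% in sgControl and 1.06 ± 0.0618%, 1.204 ± 0.0968% and 1.15 ± 0.0432% in sgRELA. If reads were counted without regard to strand, heavy-strand RNA over this locus, which is also transcribed, would be included.

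MT-CYB (chrM:14747-15887) encodes cytochrome b, the single mitochondrial subunit of complex III, which passes electrons from ubiquinol to cytochrome c. It measured 2209, 2026 and 2005 CPM on day 5 in sgControl, 3005, 3293 and 3065 on day 6 and 3125, 3443 and 3376 on day 7. In sgRELA it measured 2077, 2179.7 and 2083 on day 5, 3511, 3706 and 3906 on day 6 and 3197, 3323 and 3517 on day 7. Days 5 and 6 did not overlap in either guide, while days 6 and 7 overlapped in both. Day 6 exceeded day 5 by log2 0.59 ± 0.054 in sgControl and 0.81 ± 0.054 in sgRELA (adjusted p 1.28e-08 and 1e-11), the smallest adjusted p of any member in each. With library 1 of each RNA sample alone, the sgControl rise was 0.37 and not called (adjusted p 0.0896). Day 7 against day 6 gave 0.087 ± 0.054 and -0.15 ± 0.054 (adjusted p 0.349 and 0.0728). The latter was called without the 3 libraries that stood apart (-0.18, adjusted p 0.00503). Day 7 against day 5 gave 0.67 ± 0.054 and 0.66 ± 0.054 (adjusted p 2.91e-10 and 3.59e-10).

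In complex IV (cytochrome c oxidase, which passes electrons to oxygen), MT-CO1 was lower on day 7 than on day 5, MT-CO3 was higher and MT-CO2 was not called with all libraries. MT-CO1 (chrM:5904-7445), the catalytic subunit, measured 12440.5, 12454 and 12528 CPM on day 5 in sgControl, 12528, 14650.1 and 15219 on day 6 and 9597, 10014 and 9606 on day 7. In sgRELA it measured 13013, 13530.4 and 12857 on day 5, 13578, 14763 and 14755 on day 6 and 9599.6, 9604 and 9926 on day 7. All 6 samples of day 7 lay below all samples of the other days. MT-CO1 fell by log2 0.54 ± 0.047 from day 6 to day 7 in sgControl and by 0.57 ± 0.047 in sgRELA (adjusted p 5.73e-10 and 2.55e-10). Against day 5 the change on day 7 was -0.36 ± 0.047 and -0.44 ± 0.047 (adjusted p 2.23e-06 and 8.2e-08). From day 5 to day 6 it was called higher in sgControl (0.18 ± 0.047, adjusted p 0.0123) and not in sgRELA (0.13 ± 0.047, adjusted p 0.0999), where it was called without the 3 libraries (0.15, adjusted p 0.00059). The sgControl call was lost without day 5 replicate 1 or 2 or day 6 replicate 2 or 3 (log2 0.034 to 0.32 over the alternatives). It was also lost with no filter on low counts and with library 1 of each RNA sample alone. With library 1 alone, the sgControl fall from day 5 to day 7 was not called either (-0.37, adjusted p 0.0507).

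MT-CO2 (chrM:7586-8269), which takes up electrons from cytochrome c, was highest on day 6. It measured 1774, 1320.5 and 1394 CPM on day 5 in sgControl, 1825, 1992 and 1786 on day 6 and 1416, 1578 and 1474 on day 7, and 1377, 1511 and 1365 on day 5, 1787, 1914 and 2288 on day 6 and 1403, 1494 and 1569 on day 7 in sgRELA. Day 6 exceeded day 5 by 0.32 ± 0.085 and 0.49 ± 0.085 (adjusted p 0.0143 and 0.000253), and day 7 fell below day 6 (-0.33 ± 0.085 and -0.42 ± 0.085, adjusted p 0.00723 and 0.00064). In sgControl the rise was lost without day 5 replicate 2 or 3 or day 6 replicate 2, and was -0.015 with library 1 of each RNA sample alone. The fall there was lost without day 6 replicate 2 and with library 1 alone (log2 -0.45 to -0.22). In sgRELA the rise and the fall were 0.42 and -0.29 with library 1 alone, and neither was called. Day 7 against day 5 gave -0.0065 ± 0.085 and 0.071 ± 0.085. The sgControl value was 0.19 and called without the 3 libraries (adjusted p 0.0368). MT-CO3 (chrM:9207-9990), a structural subunit, instead ended higher. Its values were 1131, 965 and 1003 CPM on day 5 and 1547, 1646 and 1608 on day 7 in sgControl and 1050.3, 1095 and 1008 on day 5 and 1563, 1552 and 1591 on day 7 in sgRELA. It rose by log2 0.63 ± 0.066 and 0.58 ± 0.066 from day 5 to day 7 (adjusted p 3.83e-08 and 1.93e-07), with no overlap between the days.

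MT-ATP6 and MT-ATP8 encode subunits of the membrane part of ATP synthase, where proton flow drives rotation. MT-ATP6 (chrM:8527-9207) measured 1608, 1439.5 and 1415 CPM on day 5 in sgControl, 1931, 2293 and 2052 on day 6 and 2680.2, 3093 and 2952 on day 7. In sgRELA it measured 1504, 1615 and 1446 on day 5, 2353, 2626 and 2865 on day 6 and 2710.3, 2906 and 2983 on day 7. The rise by day 7 was 1.96-fold in sgControl (log2 0.97 ± 0.071, adjusted p 4.29e-11) and 1.88-fold in sgRELA (0.91 ± 0.071, adjusted p 1.36e-10). In sgControl both steps were called (0.49 ± 0.071 to day 6 and 0.48 ± 0.071 to day 7), while in sgRELA the step to day 6 was 0.78 ± 0.071 and the step to day 7 was 0.13 ± 0.07 and not called (adjusted p 0.273). The split of the rise in sgControl depended on the libraries. With library 1 of each RNA sample alone the steps were 0.26 (adjusted p 0.505) and 0.79 (adjusted p 0.00204), and with library 2 alone 0.69 (adjusted p 8.63e-07) and 0.19 (adjusted p 0.126). The guide by day test of MT-ATP6 did not pass (adjusted p 1, unadjusted 0.00359), so a difference in steps between the guides was not shown. MT-ATP8 (chrM:8366-8572) measured 24.95, 22.4 and 17.1 CPM on day 5 and 30.4, 39.3 and 31.7 on day 7 in sgControl and 14.8, 19.9 and 18.9 on day 5 and 29.6, 35.3 and 37.0 on day 7 in sgRELA. It rose by log2 0.65 ± 0.17 and 0.93 ± 0.17 (adjusted p 0.00942 and 0.000338). The sgControl call was lost without day 5 replicate 3 or day 7 replicate 2 and with library 1 of each RNA sample alone (log2 0.51 to 0.87 over the alternatives).

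**Figure D2:**
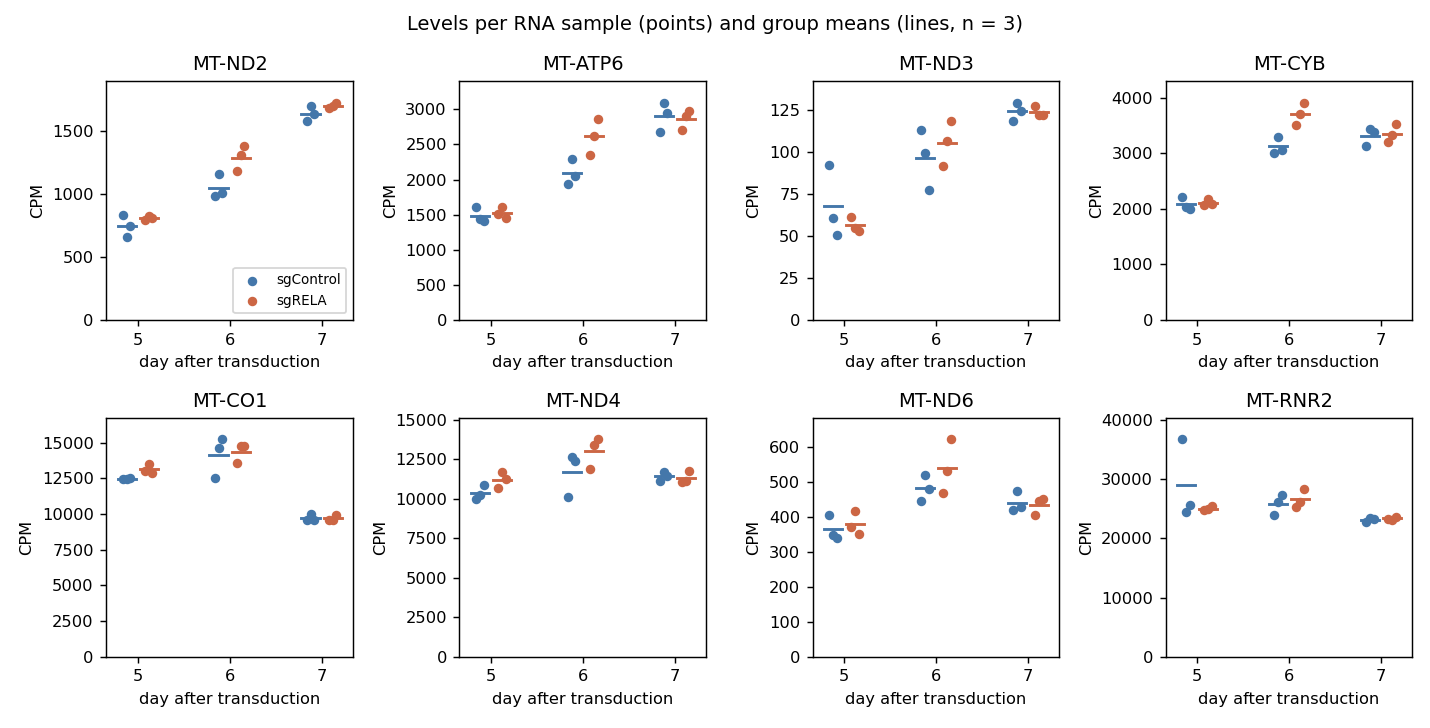
CPM of 7 mRNAs and MT-RNR2 in each RNA sample (points) by day after transduction, with group means as lines and sgControl in blue and sgRELA in orange. MT-ND2 climbs on each day, MT-CYB levels off after day 6, and MT-CO1 drops on day 7, where its 6 samples lie between 9597 and 10014 CPM.

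Shares within the mitochondrial mRNA pool do not depend on scaling to other genes. On day 7 the share of MT-CO1 was lower than on day 5 and those of MT-ND2 and MT-ATP6 were higher, described here with no test. MT-CO1 took 35.8, 37.3 and 36.8% of the counts on the 13 mRNA genes in sgControl on day 5, 33.9, 33.8 and 36.0% on day 6 and 26.3, 25.5 and 25.3% on day 7. In sgRELA it took 37.3, 36.5 and 36.7% on day 5, 32.7, 32.5 and 31.2% on day 6 and 25.99, 25.6 and 25.4% on day 7. All samples of day 7 thus lay below all earlier samples. MT-ND2 went from 2.19% ± 0.205 to 2.58% ± 0.159 and 4.32% ± 0.00979 (mean ± SD, n = 3) in sgControl and from 2.27% ± 0.0452 to 2.88% ± 0.0380 and 4.50% ± 0.0768 in sgRELA. MT-ATP6 went from 4.37% ± 0.240 to 5.12% ± 0.239 and 7.66% ± 0.287 in sgControl and from 4.27% ± 0.122 to 5.83% ± 0.201 and 7.57% ± 0.211 in sgRELA. MT-ND4, the other abundant mRNA, took 30.5% ± 1.54, 28.6% ± 1.14 and 30.2% ± 0.317 in sgControl and 31.5% ± 0.766, 29.1% ± 0.409 and 29.9% ± 0.216 in sgRELA. From day 5 to day 6 the mean shares of MT-CO1 and MT-ND4 were thus lower in both guides while their mean CPM was higher.

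As a share of all counts, the 13 mRNAs took 3.37 ± 0.0490% on day 5, 4.27 ± 0.246% on day 6 and 3.69 ± 0.133% on day 7 in sgControl, and 3.53 ± 0.109%, 4.59 ± 0.285% and 3.68 ± 0.113% in sgRELA. The 37 genes together took 8.06 ± 1.06%, 8.86 ± 0.473% and 7.65 ± 0.223% in sgControl and 7.65 ± 0.139%, 9.29 ± 0.598% and 7.64 ± 0.158% in sgRELA. The group means on day 6 were the highest, as they were without the 3 libraries that stood apart (9.13 ± 0.107% and 9.60 ± 0.266%). The order of days 5 and 7 in sgControl turned with them: without these libraries day 5 stood at 7.49 ± 0.0781%, below day 7. These shares are a description with no test. In bulk RNA, more mitochondrial RNA per cell and less other RNA per cell cannot be told apart, and the day of harvest and any processing batch that followed it cannot be told apart either.

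Along the genome, the changes did not run in order. Over the 12 heavy-strand mRNAs, Spearman's rho between gene order and the log2 change from day 5 to day 7 was -0.007 in sgControl and -0.17 in sgRELA. For gene length it was -0.26 and -0.48, for GC content -0.37 and -0.47, and for level per kb -0.43 and -0.73. These are descriptions over 12 genes that share transcripts, and the genes are not independent replicates. Neighbours could differ widely: MT-CO1 and MT-ND2, separated by a cluster of 5 tRNAs, changed by -0.36 and 1.13 in sgControl and by -0.44 and 1.07 in sgRELA. Grouped by how they end, a grouping chosen after the values were seen, 5 of the 6 genes with an incomplete stop were called higher on day 7 than on day 5 in each guide with all libraries, with a median log2 change of 0.65 in sgControl and 0.67 in sgRELA. The sixth was MT-ND4, called in sgControl without the 3 libraries. Of the 7 genes with a complete stop, 4 were called higher and 1 lower in sgControl and 3 higher and 1 lower in sgRELA, with a median of 0.27 in each. MT-ATP6 is in the second set by its annotated TAA, whose last base it shares with MT-CO3. Its place there is not certain, and the counts and medians depend on it. MT-ATP6 rose as much as most of the first set. MT-ATP8, with a complete TAG, changed by 0.65 in sgControl and 0.93 in sgRELA. These values lie inside the range of the first set, so the 2 sets overlap.

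**Figure D3:**
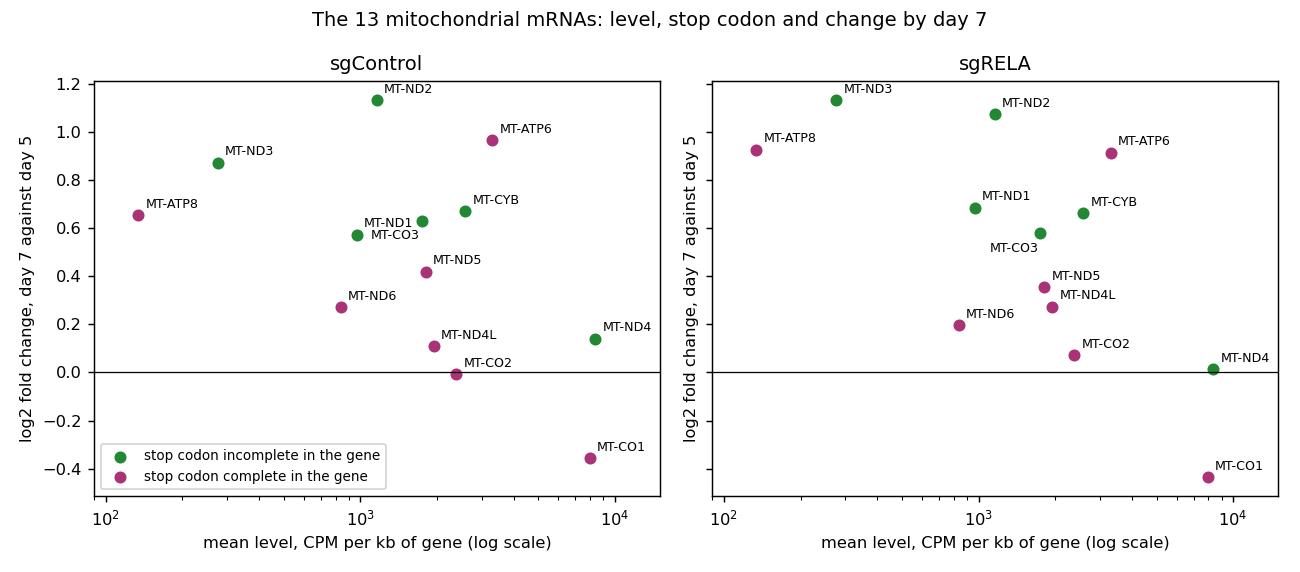
Mean level of the 13 mRNAs (CPM per kb, log axis) against the log2 fold change from day 5 to day 7 in sgControl (left) and sgRELA (right), with green points for genes whose stop codon is incomplete in the DNA and purple points for a complete stop. MT-CO1 and MT-ND4, the mRNAs with the highest levels, lie at or under 0.14 in both panels.

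Nuclear DNA holds copies of mitochondrial genes, and some are nearly identical to them. The table listed 404 such pseudogenes, summing to 309 to 576 CPM per RNA sample, and 3 averaged at least 10 CPM, all plus-strand genes on chromosome 1 (GENCODE v29, GRCh38). MTND2P28 (chr1:629640-630683) is 98.4% identical to MT-ND2 over the aligned bases, MTCO1P12 (chr1:631074-632616) 98.6% identical to MT-CO1, and MTATP6P1 (chr1:633696-634376) 98.5% identical to MT-ATP6. Reads cannot be assigned with certainty between such copies, and how several matches were counted is not known. MTATP6P1 measured 196, 179.9 and 152 CPM on day 5 and 321, 369.6 and 354 on day 7 in sgControl and 168, 194 and 178 on day 5 and 333, 344 and 355 on day 7 in sgRELA. Its log2 change from day 5 to day 7 was 0.98 and 0.93 (adjusted p 5.93e-08 and 1.47e-07), beside 0.97 and 0.91 for MT-ATP6. MTND2P28 changed by 1.43 and 1.29 (adjusted p 8.99e-05 and 0.000302), beside 1.13 and 1.07 for MT-ND2. MTCO1P12 gave 0.043 and -0.26 and did not pass (adjusted p 0.881 and 0.173), while MT-CO1 was lower, and from day 6 to day 7 both were lower (-0.47 and -0.63 for MTCO1P12, adjusted p 0.0053 and 0.000273). The levels of MTND2P28 and MTCO1P12 were small beside those of MT-ND2 and MT-CO1. MTATP6P1 was less so, at 321 to 369.6 CPM beside 2680 to 3093 for MT-ATP6 in sgControl on day 7.

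The study's question, the effect of activating RELA, was asked of the same genes on each day. On day 5, 0 of 17 members were called between the guides, with 2 at an unadjusted p under 0.05, against 0.138% of all genes. On day 7, 0 were called, with 0 at an unadjusted p under 0.05, against 0.0907% of all genes (0.0653% higher and 0.0254% lower), and no rRNA or mRNA differed by more than 0.055 on the log2 scale. On day 6, 2 were called, both higher in sgRELA, against 0.214% of all genes (0.152% higher and 0.0617% lower). MT-ATP6 measured 1931, 2293 and 2052 CPM in sgControl and 2353, 2626 and 2865 in sgRELA, a log2 difference of 0.32 ± 0.07 (adjusted p 0.0401). MT-CYB measured 3005, 3293 and 3065 in sgControl and 3511, 3706 and 3906 in sgRELA, a difference of 0.25 ± 0.054 (adjusted p 0.0387). The guides did not overlap for either gene, nor for MT-ND2, which did not pass (0.29 ± 0.071, adjusted p 0.0948).

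Both day 6 calls depended on single RNA samples. Each was lost without replicate 1 or 3 of sgControl or replicate 2 or 3 of sgRELA. In these fits the adjusted p reached 0.443 for MT-ATP6 and 0.426 for MT-CYB. Over all 14 alternatives it reached 0.761 and 0.814, with library 1 of each RNA sample alone. Without the 3 libraries that stood apart, 2 of them of day 6, MT-ATP6 gave 0.27 (adjusted p 0.0504) and MT-CYB 0.26 (adjusted p 0.00298). The test of whether the day effects differ between the guides called 0 of 17 members, with 2 at an unadjusted p under 0.05 (MT-ATP6 and MT-CYB), against 0.00363% of all genes. DESeq2 called 0 in these tests on days 5 and 7 and of the interaction, and 3 on day 6. A difference between the guides in the time course of a member was not shown.

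The 2 libraries of an RNA sample gave values that differed more for some members than others. Over the 18 pairs, the median absolute log2 ratio of library 2 to library 1 was 0.053 for MT-RNR2 and 0.059 for MT-CO1, and 0.28 for MT-ND3, 0.22 for MT-ND4L and 0.21 for MT-CO2. The largest ratios came from 2 of the libraries that stood apart. MT-ND4 measured 6067 CPM in library 1 and 13447 in library 2 of sgControl day 6 replicate 1. MT-RNR1 measured 30617 in library 1 and 14125 in library 2 of sgControl day 5 replicate 1. Log2 ratios were 1.15 and -1.12. With the RNA sample as a term, 0 of the 15 rRNA and mRNA genes differed between the sets of libraries, with 1 at an unadjusted p under 0.05, against 0% of the 23702 genes tested, and DESeq2 called 0 as well. That gene was MT-CO2 (-0.16 ± 0.07). The test fits a single library effect for all groups, so it cannot show library effects that run in opposite directions in different groups. For MT-RNR1 on day 7 against day 5 in sgControl, library 1 alone gave -0.48 and library 2 alone 0.47. The last counts are for day 6 against 5, day 7 against 6 and day 7 against 5. Without the 3 libraries that stood apart, the members called were 13, 9 and 15 in sgControl and 15, 11 and 11 in sgRELA. Over all genes that fit called 2314, 3886 and 3587 in sgControl and 2213, 3420 and 3436 in sgRELA. With all libraries these were 2445, 4012 and 3585 in sgControl and 1904, 3368 and 3420 in sgRELA.

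**Figure D4:**
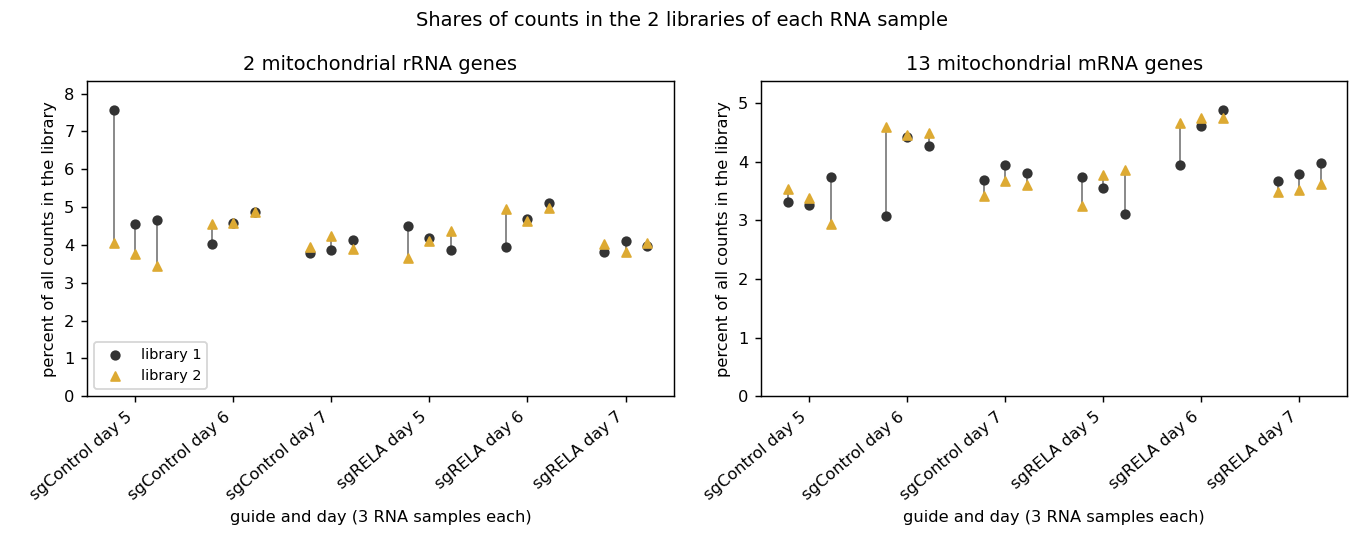
Share of all counts on the 2 mitochondrial rRNA genes (left) and the 13 mRNA genes (right) in library 1 (dark circles) and library 2 (yellow triangles) of each RNA sample, joined by a line. Library 1 of sgControl day 5 replicate 1 reaches 7.57% for rRNA, and library 1 of sgControl day 6 replicate 1 is the lowest of its group for mRNA at 3.07%.

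Nuclear genes for mitochondrial transcription, DNA maintenance and RNA processing were examined as a list of 45, all of which passed the filter. From day 5 to day 6, 0 were called higher and 11 lower in sgControl and 0 higher and 3 lower in sgRELA, where 5.58% and 4.34% of all genes were called lower. From day 6 to day 7, 21 were called higher and 1 lower in sgControl and 19 higher and 1 lower in sgRELA, where 8.25% and 7.21% of all genes were called higher. Day 7 against day 5 gave 9 higher and 0 lower in sgControl, with a median of 0.13, where 6.65% of all genes were called higher and 6.36% lower. In sgRELA it gave 10 higher and 1 lower, with a median of 0.20, where 6.35% and 6.06% were. TRMU, which modifies tRNAs, rose by log2 0.80 in sgControl and 0.89 in sgRELA (adjusted p 0.000448 and 0.000139). RNASEH1, which removes RNA from DNA hybrids, rose by 0.75 and 0.49, and TWNK, the DNA helicase, by 0.64 and 0.60. TFAM, the factor that packages the DNA and starts transcription, rose by 0.47 and 0.59 (adjusted p 0.0071 and 0.001). HSD17B10, a subunit of the RNase P that cuts tRNA 5′ ends, rose in sgControl (0.59; in sgRELA 0.39, adjusted p 0.0508), and the helicase DHX30 rose in sgRELA (0.46; in sgControl 0.079, adjusted p 0.713). MTERF2 was called lower in sgRELA (-0.74, adjusted p 0.0441). POLRMT, the RNA polymerase, gave 0.13 and 0.037, and LRPPRC, which stabilises the mRNAs, -0.023 and -0.15, and neither passed. Between the guides, 0 of the 45 were called on any day.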

How the data were processed

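The deposited table gives raw counts per gene, with no normalization per the labels, in a column for each of the 36 libraries. The submitters' processing notes name cutadapt 1.18, STAR 2.7.9a and GRCh38; the counting tool, annotation, strand setting and treatment of multiple matches are not given in the sources used here. Every column was assigned to a sample by the name in its label. The 2 libraries per RNA sample were summed, and the 18 sums were fitted with a mean for each of 6 groups in edgeR 4.0.16 (R 4.3.3), with TMM scaling, a minimum count of 10 in filterByExpr, quasi-likelihood F tests and p-values adjusted by Benjamini-Hochberg over the 27553 genes tested. SEs were derived from the F statistic. TMM factors lay between 0.971 and 1.08. The guide by day interaction was an F test on 2 coefficients, and the library comparison was fitted on 36 libraries with the RNA sample as a term. The method was tested on simulated counts.

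The labels describe biological replicates from transductions made in triplicate and do not say whether the 3 days share a transduction; p-values measure the spread between these samples. Symbols, coordinates and sequences came from GENCODE v29. Alternatives were DESeq2 1.42.0, its size factors, scaling without mitochondrial genes, no filter, each set of libraries alone, a replicate block, leaving out each RNA sample and, chosen after seeing the data, leaving out 3 libraries. All 37 members are accounted for; the rRNA and mRNA genes are named in full, tRNAs by rule (called in both guides, or opposite in sign to the mRNAs of their strand), nuclear genes by the smallest p between day 7 and day 5, up to 4 per direction, plus POLRMT, TFAM and LRPPRC, and pseudogenes from 10 CPM. Members and lists were chosen with earlier results of these data known.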

Additional observations from a re-analysis of the deposited data

Results flagged for a closer look

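Within each group of 6 libraries (3 RNA samples with 2 libraries each), the highest and lowest library were compared with the nearest other for 5 mitochondrial shares, which gave 30 searches. Of these, 6 passed Dixon's critical ratio of gap to range, where about 1.5 would pass by chance if libraries of an RNA sample and the shares were independent, which they are not. All 6 concern library 1 of a replicate 1. In sgControl on day 5, library 1 of replicate 1 had 7.57% of its counts on the 2 rRNA genes, and the other 5 libraries had 3.43 to 4.67%. In sgControl on day 6, library 1 of replicate 1 was low in the share of all 37 genes (7.10%, others 9.0 to 9.36%), of the rRNA genes (4.03%, others 4.56 to 4.87%) and of the mRNA genes (3.07%, others 4.26 to 4.59%). In sgRELA on day 6, library 1 of replicate 1 was low in the share of all 37 genes (7.91%, others 9.28 to 10.0%) and of the mRNA genes (3.95%, others 4.60 to 4.89%).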

How the results depend on the processing

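Over the comparisons of days and of guides, single mitochondrial genes were called 56 times with all libraries, not all given above with values. Of these calls, 22 held under all 14 alternatives. DESeq2 kept 55, its size factors in edgeR 56, scaling without mitochondrial genes 55, no filter on low counts 52, library set 2 alone 49, library set 1 alone 24, and leaving out 1 RNA sample at a time 285 of 336. No scaling moved the median of all genes by more than 0.1 (log2). With library set 1 alone, members called fell to 0 (day 6 against 5), 3 (day 7 against 6) and 6 (day 7 against 5) in sgControl. All genes called there fell from 2445 to 430, from 4012 to 1879 and from 3585 to 820. In sgRELA, members called were 5, 1 and 9 in the same order. All genes called there fell from 1904 to 196, from 3368 to 961 and from 3420 to 669. For the guides on day 6, members called fell to 0 and all genes called from 59 to 15. With that set MT-CO2 turned to -0.015 (day 6 against 5, sgControl). Between the guides on day 6, library set 2 alone called 0 members and 35 of all genes, and no filter 1 and 85. Without the 3 libraries that stood apart (chosen after seeing the data), 1 was called between the guides on day 6 and 11 from day 6 to day 7 in sgRELA. Of all genes, 67 and 3420 were called there. DESeq2 called 3 between the guides on day 6. Over all genes it called 72, 128 and 55 between the guides on days 5, 6 and 7, where edgeR called 38, 59 and 25, and 14 against 1 for the interaction. The cause of these differences was not tested. The next counts are for day 6 against 5, day 7 against 6 and day 7 against 5. Leaving out 1 RNA sample gave 7 to 10, 4 to 6 and 9 to 10 members called in sgControl. In sgRELA it gave 10 to 13, 3 to 5 and 9 to 9, and 0 to 3 between the guides on day 6. Over all genes these fits called 1726 to 2292, 3196 to 3644 and 2638 to 2905 in sgControl. In sgRELA they called 1242 to 1469, 2540 to 2724 and 2509 to 2667, and 38 to 68 between the guides on day 6. Without the rRNA genes, the mitochondrial share was 3.53, 4.47 and 3.84% in sgControl and 3.69, 4.82 and 3.83% in sgRELA on days 5, 6 and 7.

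Deviations of same-numbered samples correlated by -0.11 to 0.045 over 18 pairs within a guide and by -0.0095 to 0.060 over 9 pairs within a day, 0 of them above 0.1, so the numbers were not taken to pair samples. With a replicate block the members called were 11, 6 and 11 in sgControl and 12, 5 and 9 in sgRELA for the same day comparisons. Over all genes the block gave 2242, 3816 and 3285 in sgControl and 1691, 3129 and 3189 in sgRELA. Between the guides on days 5, 6 and 7 it gave 0, 2 and 0 members, and 33, 57 and 21 of all genes. The interaction gave 0 members and 0 of all genes with the block. The block kept 54 of the 56 calls. A sample correlated best with its own number in 4 of the 18 pairs and 4 of the 9.

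Counts of tRNAs limit any statement on them, as do unknown strand and multiple-match settings for MT-ND6, overlapping genes and nuclear copies.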
